A study of Mus musculus with 18 samples.

Results

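The regions described here are 866 long stretches of the mouse autosomes in which no peak of H3K27me1, H3K27me2, H3K27me3 or H3K36me2 was listed in E14 mouse embryonic stem cells, an established pluripotent line. They were found as the gaps of 200 kb or more between consecutive rows of the merged union of the authors' 4 replicated peak lists on chromosomes 1 to 19, and they are 866 of 55508 such gaps (1.56%). Windows of 1 kb with 0 reads in all 18 tracks were left out of every level, which removed 25308 of 330936 windows (7.65%) in these blocks, against 9.81% in gaps under 200 kb and 4.52% over the autosomes. The peaks came from the untreated libraries of those 4 marks, so their low untreated levels in the blocks follow from the rule and are given as a description, without a test. H3K36me3 and the DMSO and EZH2i libraries had no peak list in the rule and took part only in deciding which windows held no read in any track.

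The series holds 18 chromatin immunoprecipitation libraries in 9 groups of 2. Untreated E14 cells gave 10 libraries, 2 for each of the 4 marks above and 2 for H3K36me3. A further 8 carried a spike-in of Drosophila S2 chromatin and measured H3K27me3 or H3K36me2 in cells kept for 7 days in the EZH2 inhibitor EPZ-6438 at 10 µM (the EZH2i group) or in a matching volume of its solvent (the DMSO group). All groups were grown in 2i/LIF medium, which holds inhibitors of GSK3 and MEK and the cytokine LIF, with arginine and lysine of differing isotope weight. Nothing in the labels says that the 2 replicates of a group came from separate cultures, so p-values measure only the spread between these libraries, which may be technical.

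EZH2 is the catalytic subunit of Polycomb repressive complex 2, the enzyme that mono-, di- and trimethylates lysine 27 of histone H3. H3K36me2 is laid down mainly by the NSD enzymes over broad domains, and H3K36me3 by SETD2 over the bodies of transcribed genes. Methylation of lysine 36 is known to hinder Polycomb repressive complex 2 on the same histone tail, so chromatin that carries little of either mark is of interest when the enzyme is inhibited.

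The promoters of genes in the blocks were short of CG dinucleotides, the feature of CpG islands, where promoters of broadly expressed and of Polycomb-bound genes usually lie. Of 944 protein-coding genes lying wholly inside a block, 799 matched the RefSeq promoter table (GRCm38.p6). Over the 250 bases before the start the median number of CG was 1, against 10 in the 16457 matched autosomal protein-coding genes of 20665. No CG at all was found in 23.4% of promoters in the blocks and in 7.02% of all, and 10 or more in 5.76% and 51.8%. The median GC content of the same bases was 41.6% and 55.6%. The letters TATAAA, on either strand, were present in 30.9% of promoters in the blocks and in 12.5% of all promoters of this length. They were counted anywhere in the 250 bases, and a lower GC content by itself makes them more frequent. Many promoters in the blocks belong to related gene copies, and the rule keeps out genes with a listed peak. None of this was corrected for. The following promoters, 5′ to 3′ on the gene's strand with every CG in capitals, are shown to make that composition visible. They belong to 3 of the longest genes inside blocks (Mgat4c, Skint5 and Cdh10), to Slitrk6, a neuronal surface protein, to 3 of the genes with most H3K36me3 (Olfr1055, Cox7c and Snurf), and to Zscan4f, a gene of the early embryo whose block is described with the zinc finger genes below.
Mgat4c, chr10:101681237-101681486 (plus strand): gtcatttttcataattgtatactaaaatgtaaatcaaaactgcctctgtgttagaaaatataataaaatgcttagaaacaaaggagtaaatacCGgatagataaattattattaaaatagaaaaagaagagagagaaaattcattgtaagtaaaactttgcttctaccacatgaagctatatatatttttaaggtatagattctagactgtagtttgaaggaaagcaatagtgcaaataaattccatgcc
Skint5, chr4:113999504-113999753 (minus strand): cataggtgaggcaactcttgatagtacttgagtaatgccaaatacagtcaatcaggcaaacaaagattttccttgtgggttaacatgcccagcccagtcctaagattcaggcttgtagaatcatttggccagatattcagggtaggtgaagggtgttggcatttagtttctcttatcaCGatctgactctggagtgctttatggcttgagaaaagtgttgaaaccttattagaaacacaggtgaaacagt
Cdh10, chr15:18820079-18820328 (plus strand): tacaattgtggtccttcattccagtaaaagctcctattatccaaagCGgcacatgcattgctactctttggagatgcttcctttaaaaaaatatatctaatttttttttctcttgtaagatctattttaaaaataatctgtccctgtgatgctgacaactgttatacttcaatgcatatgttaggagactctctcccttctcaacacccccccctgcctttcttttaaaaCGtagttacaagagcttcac
Slitrk6, chr14:110755150-110755399 (minus strand): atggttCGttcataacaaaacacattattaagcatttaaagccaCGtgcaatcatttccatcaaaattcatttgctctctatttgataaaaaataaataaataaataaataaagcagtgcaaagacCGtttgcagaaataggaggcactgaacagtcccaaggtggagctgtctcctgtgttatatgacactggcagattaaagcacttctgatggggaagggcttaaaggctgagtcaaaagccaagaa
Olfr1055, chr2:86347765-86348014 (minus strand): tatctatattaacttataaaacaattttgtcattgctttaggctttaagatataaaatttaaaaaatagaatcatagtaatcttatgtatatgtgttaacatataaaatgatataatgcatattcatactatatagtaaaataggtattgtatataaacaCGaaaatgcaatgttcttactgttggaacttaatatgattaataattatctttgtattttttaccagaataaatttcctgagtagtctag
Cox7c, chr13:86046796-86047045 (minus strand): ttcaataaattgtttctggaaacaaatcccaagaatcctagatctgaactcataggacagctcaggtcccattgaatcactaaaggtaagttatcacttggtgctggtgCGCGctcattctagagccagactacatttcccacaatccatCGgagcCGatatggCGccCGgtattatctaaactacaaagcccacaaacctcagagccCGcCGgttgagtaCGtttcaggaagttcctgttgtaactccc
Snurf, chr7:60005200-60005449 (minus strand): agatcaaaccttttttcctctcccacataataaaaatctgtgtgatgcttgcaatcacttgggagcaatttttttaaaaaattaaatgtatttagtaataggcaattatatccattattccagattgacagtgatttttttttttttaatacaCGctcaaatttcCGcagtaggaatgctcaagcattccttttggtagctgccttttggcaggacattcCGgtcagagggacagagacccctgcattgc
Zscan4f, chr7:11397665-11397914 (plus strand): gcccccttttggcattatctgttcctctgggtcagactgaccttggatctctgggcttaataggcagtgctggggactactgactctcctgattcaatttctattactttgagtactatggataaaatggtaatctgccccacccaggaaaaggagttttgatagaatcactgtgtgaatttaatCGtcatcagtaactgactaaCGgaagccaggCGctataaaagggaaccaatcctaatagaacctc
The start that the promoter table gives for Cdh10 lies inside the gene's annotated span, downstream of its first base, so that stretch is not upstream of the whole gene, and the stretch shown for Slitrk6 overlaps the first bases of its annotated span. The 7 promoters other than that of Cox7c hold from 1 to 3 CG. Cox7c, which encodes a subunit of cytochrome c oxidase and is active in most cells, has 9, close to the median of all promoters.

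The blocks covered 331.4 Mb, or 13.5% of the autosomes and 28.2% of all autosomal sequence between peaks. Their median length was 297.5 kb, with 132 blocks of 500 kb or more, 27 of 1 Mb or more and the longest at 3287.5 kb, while the median gap was 6 kb. The shortest blocks measured 200 kb and the longest gap left out 199.5 kb, and the numbers of gaps just below and just above the limit were alike, with 73 gaps of 190 to 200 kb and 68 of 200 to 210 kb. Blocks took 22.6% of chromosome 14, the highest share, and 5.22% of chromosome 3, the lowest.

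Estimated depth was 17.3 M to 50.9 M reads (M, mega) in the untreated libraries and 16.3 M to 84.4 M in those with a spike-in, except for H3K27me3 after the inhibitor, which had 0.749 M and 1.34 M. The labelled cell type was checked on gene bodies: 10 genes of the naive pluripotent state carried H3K36me3 at 1.03 to 7.19 times the autosomal mean (median 5.18) and H3K27me3 at 0 to 2.15, and 10 genes of other cell types carried H3K36me3 at 0.468 to 2.05 (median 1.09) and H3K27me3 at 2.47 to 11.4, so the ranges overlapped for H3K36me3. Levels below are mean reads per 1 kb window relative to the same library's mean over autosomal windows, and are called relative levels; levels multiplied by the factor in the deposited tracks, taken to be the spike-in factor, are named as such.

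Among the marks that chose the blocks, the untreated relative level was 0.513 and 0.569 for H3K27me1, 0.457 and 0.506 for H3K27me2, 0.268 and 0.349 for H3K27me3 and 0.137 and 0.179 for H3K36me2 in the 2 libraries of each. H3K27me1 and H3K27me2 thus stood nearest to the autosomal mean, and H3K36me2 lowest of the 4. H3K36me3, which was not used, was lower still: 0.118 and 0.0916 in the blocks, 0.278 and 0.227 in gaps under 200 kb, or 0.105 ± 0.018 against 0.252 ± 0.036 (SD, n = 2). Both libraries were lower in the blocks than either was in the shorter gaps. Windows in shorter gaps lie nearer to peaks, and H3K36me3 within the blocks fell with distance from their ends, as given below. Across blocks it also followed H3K36me2, whose peaks entered the rule. How much of the difference follows from the choice of blocks was not tested. A read of H3K36me3 was missing from 43.2% and 58.3% of block windows. No input library was used here, so how much of each level is background was not tested. The plot of levels by library shows all 9 groups side by side.

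**Figure D1:**
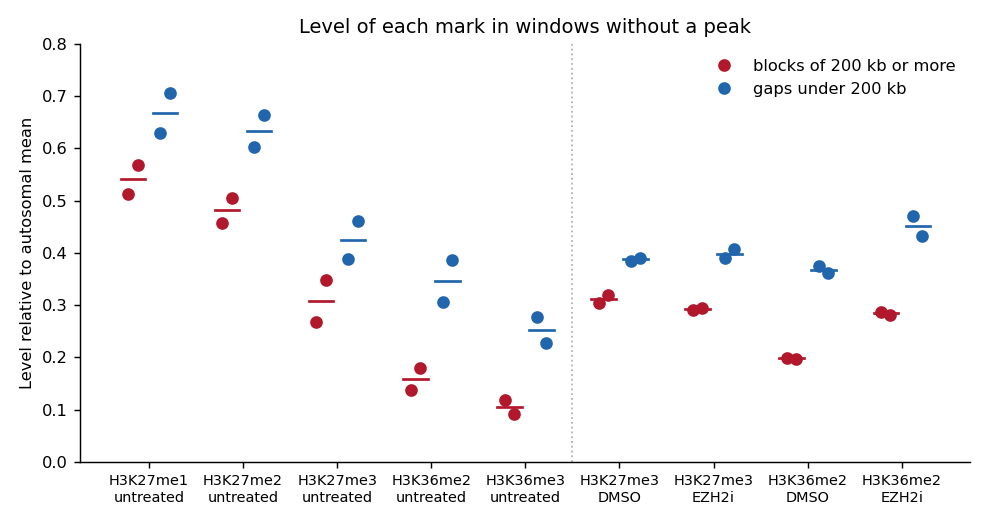
Level of each mark relative to the library's autosomal mean (vertical axis) in the 866 blocks (red) and in gaps under 200 kb (blue), 1 point per library and a bar at the mean of 2, with untreated groups left of the dotted line. H3K36me3 lies at 0.118 and 0.0916 in the blocks, and H3K36me2 in the blocks lies at 0.199 and 0.197 in DMSO and at 0.287 and 0.281 after EZH2i.

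Block by block, untreated H3K36me3 ran from 0.0118 to 0.451 with a median of 0.105, and no block reached the autosomal mean. The highest block, chr17:6219501-6492500 (0.456 and 0.446), holds Dynlt1a, Dynlt1b and Tmem181a, of which the first 2 encode dynein light chains. Others among the 5 highest were chr12:17860001-18135000 with Gm9222 (0.366 and 0.342), chr5:48021501-48300500 within Slit2 (0.339 and 0.282), an axon guidance gene, and chr4:28816001-29025000 (0.326 and 0.260). Across the 866 blocks the order by H3K36me3 followed that by H3K36me2 in DMSO (Spearman's rho 0.861, over blocks of the same libraries and so a description).

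Protein-coding genes were sparse. The blocks held 2.85 per Mb wholly inside, against 8.39 per Mb over the autosomes, 944 of 20665 genes (4.57%). Of the blocks, 504 overlapped no protein-coding gene, 109 lay wholly within 1, 99 overlapped part of 1 or more, and 154 held at least 1 whole. No gene of any type was annotated in 132. A few clusters carried most of the count: 29 blocks with 10 or more genes held 567 of the 944 (60.1%). The longest block, chr7:20051001-23338500, held 85 genes, most of them of the Vmn1r family of vomeronasal pheromone receptors, and 72.4% of its windows had no read in any library. Clusters of Vmn2r genes (chr7:7301001-10076000), Pramel genes (chr5:93394001-95903000), Skint genes (chr4:111956001-114131500) and Scgb genes (chr7:31510001-33389000) made up other blocks among the 10 longest, with 38.4% to 50.5% of windows without a read. In such clusters of near-identical copies, reads that map to several places may have been dropped or shared; how they were handled is not given in the sources used here.

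By family, 147 of 1104 Olfr odorant receptor genes lay wholly inside a block (13.3%), 83 of 231 Vmn1r (35.9%), 31 of 123 Vmn2r (25.2%), 10 of 11 Skint (90.9%), which belong to the selection of skin T cells, 34 of 71 defensin genes (47.9%) and 7 of 20 Mrgpr genes (35%), a sensory receptor family. Families added after the symbols in the blocks were seen included 29 of 29 Defa genes of the gut, already counted among the defensins. They also included 24 of 26 prolactin family genes of the placenta, 17 of 22 Mup pheromone carriers and 12 of 14 Sprr genes of the epidermis. Members share few blocks and are not independent. Olfr genes lie in 13 blocks, Vmn2r in 6, Vmn1r and defensins in 3 each, and Skint, prolactin and Mup genes in 2 each. Only 35 of the 83 Vmn1r genes had a window with a read, and 61.1% of windows in the Vmn1r blocks were at 0. None of 39 Hox, 43 Fox, 18 Sox or 12 Pax genes, which are classic Polycomb targets, lay inside a block, and none of 53 Rpl and 42 Rps genes or 92 Kcn potassium channel genes. None of 15 Taar receptors did either. A gene with a listed peak of any mark in the rule cannot lie wholly inside a block. The rule itself thus keeps out Polycomb targets with H3K27me3 peaks, and equally genes with peaks of the other marks. Nothing is therefore read from the absence of the Hox, Fox, Sox and Pax genes, or of the Rpl, Rps and Kcn genes. At a share of 4.57%, families as small as Pax, Sox and Taar are also too few for their absence to be informative. The bar plot sets the family shares beside the 4.57% of all genes.

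**Figure D2:**
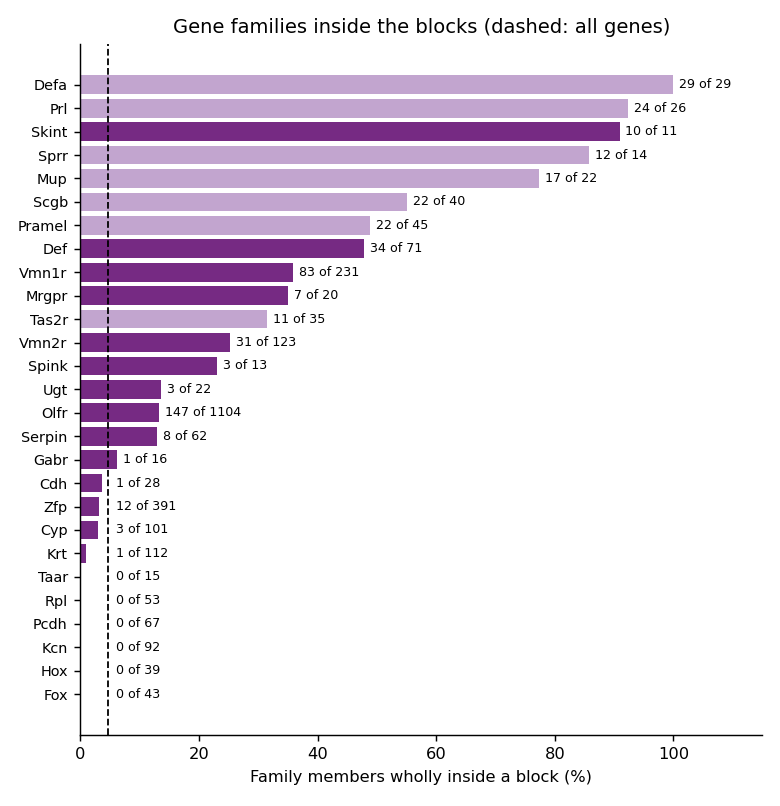
Share of each gene family's autosomal members lying wholly inside a block (horizontal axis, %), with the counts beside each bar; dark bars are families on the main list, light bars families added after symbols were seen, and some families at 0 are not drawn. The dashed line is the 4.57% of all protein-coding genes. Defa, Prl and Skint stand at 90% or more and Hox, Rpl and Kcn at 0. Genes with a listed peak are kept out by the rule, so nothing is read from families at 0.

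Gene bodies in the blocks carried little of the mark of transcription. Among 869 protein-coding genes lying at least 80% in a block with windows to read, the median H3K36me3 was 0.0482 times the autosomal mean, against 1.71 over all 20404 genes measured, and 6 (0.69%) exceeded the mean against 66.5% of all. Of 992 genes lying at least 80% in a block, 869 had such windows. Some families were low in other marks too. Untreated H3K27me1 (replicate 1) was 0.173 over Skint and 0.319 over Vmn2r gene bodies, but 0.644 over Olfr, against 0.513 in all blocks. The rule also keeps out genes covered by H3K36me2 peaks, and H3K36me3 followed H3K36me2 across blocks. How much of the contrast follows from mapping or from the rule was not tested. The genes at the top were few and most rested on little sequence. Cox7c had 40 and 30 window reads over 3 windows, or 1.18 and 1.04 times the mean. Dynlt1b had 160 and 154 over 12 windows, or 1.18 and 1.34. Snurf, which with Snrpn forms an imprinted transcription unit, had 305 and 230 over 24 windows, or 1.13 and 0.997. Loxl2, a collagen crosslinking enzyme gene, had 88 and 101 window reads, a mean of 1.31 times the autosomal mean, over the 7 windows of its 87.1 kb that held any read, and Olfr1055 at 1.42 and 0.728 over 2. The longest gene wholly inside, Mgat4c (710.4 kb), an N-glycan branching enzyme gene, stood at 0.0890, and Cdh10, a type II cadherin of neurons, at 0.0656.

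After the inhibitor, H3K36me2 took a larger share of its library's reads in the blocks. The relative level was 0.199 and 0.197 in DMSO and 0.287 and 0.281 after EZH2i, so both treated libraries lay above both controls. The change was 0.52 on the log2 scale, with 0.50 to 0.54 over the 4 pairs of libraries, and an exact two-sided permutation test over libraries gave p = 0.333, the smallest value that 2 against 2 can give. Gaps under 200 kb went from 0.374 and 0.361 to 0.471 and 0.433 (0.30), and windows in peaks differed by -0.07. The ratio of blocks to shorter gaps within each library was 0.22 higher on the log2 scale after EZH2i (0.16 to 0.29 over the pairs, exact permutation p = 0.333).

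On the spike-in scale the same libraries read 71.0 and 46.3 in DMSO and 127.8 and 70.1 after EZH2i, per window. The second treated library lay below the first control, so the groups overlapped, and the difference of 0.72 (log2) was little larger than the spread within arms (SD 0.53, exact permutation p = 0.667). It was 0.29 without EZH2i replicate 1, 0.41 without DMSO replicate 2, 1.03 without DMSO replicate 1 and 1.16 without EZH2i replicate 2. Each of these libraries had 1274250 or more window reads in the blocks.

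Tested 1 block at a time beside 200 kb tiles of the rest of the autosomes, limma on the spike-in scale called 0 of 866 blocks for H3K36me2 at an adjusted p under 0.05 (0% of all 11169 features higher, 0% lower). At an unadjusted p under 0.05 it had 37 blocks, among 91 of all 11169 features. limma-voom called 0 blocks, with 39 unadjusted among 101 of all features. With the replicate number as a block, limma called 813 blocks, all higher, beside 43.1% of all features called. Nothing in the labels shows that this number pairs the libraries. Both EZH2i libraries lay above both DMSO libraries in 478 blocks (55.2%), a pattern seen in 12.8% of all features, and below in 0 (0.00895% of all). With every library scaled to the same autosomal mean, limma called 758 blocks higher and 6 lower, against 30% and 5.16% of all features tested; the libraries did not overlap in 811 blocks that were higher (93.6% against 44.4% of all) and 21 that were lower (2.42% against 29.4%). The scatter of blocks shows these 3 groups.

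**Figure D3:**
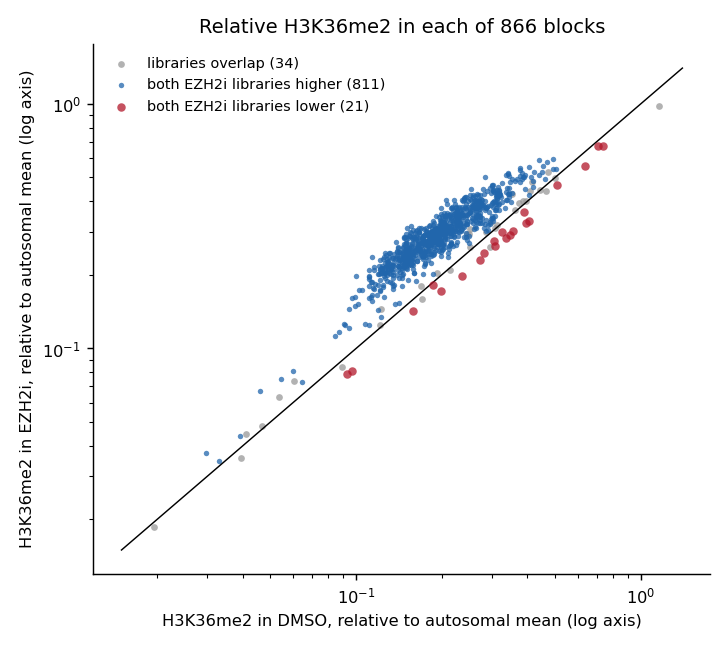
Relative H3K36me2 of each of the 866 blocks in DMSO (horizontal) and EZH2i (vertical), means of 2 libraries on log axes, with the line of equality. Blue points (811) have both EZH2i libraries above both DMSO libraries, red points (21) below, and grey points (34) overlap.

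Of the 5 blocks with the largest rise on library totals, 3 lay within genes of neurons and 2 overlapped no protein-coding gene. In chr14:93656501-93885500, inside Pcdh9, a protocadherin gene, relative H3K36me2 was 0.117 and 0.110 in DMSO and 0.249 and 0.224 after EZH2i, a log2 difference of 1.03 with SE 0.08 in limma on library totals (adjusted p = 0.00205). Blocks inside Robo2 (chr16:74833501-75059500), a receptor for Slit proteins, and inside Nrxn3 (chr12:89978001-90329500), a presynaptic adhesion gene, changed by 1.04 and 1.03 as log2 ratios of relative levels. The 2 without a protein-coding gene, chr11:38185001-38519000 and chr2:8732001-8974000, both changed by 0.98. In these 5 blocks the mean untreated H3K36me3 was 0.0664 to 0.0956, below the median of all blocks.

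A list of 42 genes, most of them for neuronal surface or adhesion proteins but with others such as Macrod2, Galntl6 and Sgcz, was followed through the blocks. Of these, 29 touched a block and 21 had more than 50% of their length in blocks, from Pcdh7 (55.9%) to Cdh10 and Slitrk6 (100%). Over all 20665 autosomal protein-coding genes, 1154 touched a block. The list was chosen with earlier results of these data known and holds many long genes. Gene length was not matched, so no link between such genes and the blocks is drawn. Both EZH2i libraries lay above both DMSO libraries over the gene body in all 21, by 0.29 (Cntn5, a contactin) to 1.38 (Slitrk6), with a median of 0.51; the same order was found in 93.6% of the blocks and in 44.4% of all blocks and tiles. Of the 13 genes on the list outside every block, 10 had the same order, and the differences of the 13 ran from -0.18 to 0.62 with a median of 0.38. The difference between the genes in and outside blocks was not tested. Slitrk6 rests on 7.87 kb, and its libraries stood at 0.164 and 0.105 in DMSO and 0.385 and 0.303 after EZH2i. Cdh10, over 197.3 kb, stood at 0.137 and 0.144 and then at 0.266 and 0.258. Lrp1b, a lipoprotein receptor gene with 86.7% of its length in blocks, stood 0.50 higher, and Csmd3 also 0.50. The genes of the list outside the blocks had H3K36me3 of 0.0440 to 0.841, against 0.0656 to 0.221 in the 21, and Slitrk5, with 8.02% in a block, was the 1 member with both EZH2i libraries lower (1.01 and 1.26 against 0.911 and 0.885).

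The log2 change of relative H3K36me2 was larger in the middle of blocks than at their ends, while the DMSO level was lower there. As a plain difference of levels, the change was no larger beyond 200 kb than within 5 kb. It was larger at 100 to 200 kb (0.1895 in DMSO and 0.279 after EZH2i). Within 5 kb of an end H3K36me2 stood at 0.247 ± 0.002 in DMSO and 0.320 ± 0.011 after EZH2i (SD, n = 2), a log2 change of 0.37 (0.33 to 0.41 over the pairs). At 20 to 50 kb the change was 0.50, at 100 to 200 kb 0.56 (0.54 to 0.58), and beyond 200 kb it was 0.56 where the levels were 0.143 ± 0.003 and 0.211 ± 0.001. The pair ranges at 0 to 5 kb and at 100 to 200 kb did not overlap. Windows far from an end come only from longer blocks, so distance and block length are mixed here. The pooled change of relative H3K36me2 was 0.48 in blocks of 200 to under 300 kb. It was 0.55 in those of 300 to under 500 kb and 0.54 in those of 500 kb or more. H3K36me3 was 0.157 ± 0.028 within 5 kb and 0.0716 ± 0.014 beyond 200 kb. Relative H3K27me3 changed by 0.07 within 5 kb (-0.003 to 0.15 over the pairs) and by -0.15 at 100 to 200 kb (-0.20 to -0.11). Those ranges did not overlap either, but beyond 200 kb the change was -0.05 (-0.15 to 0.04). The profile by distance shows the 2 treated marks.

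**Figure D4:**
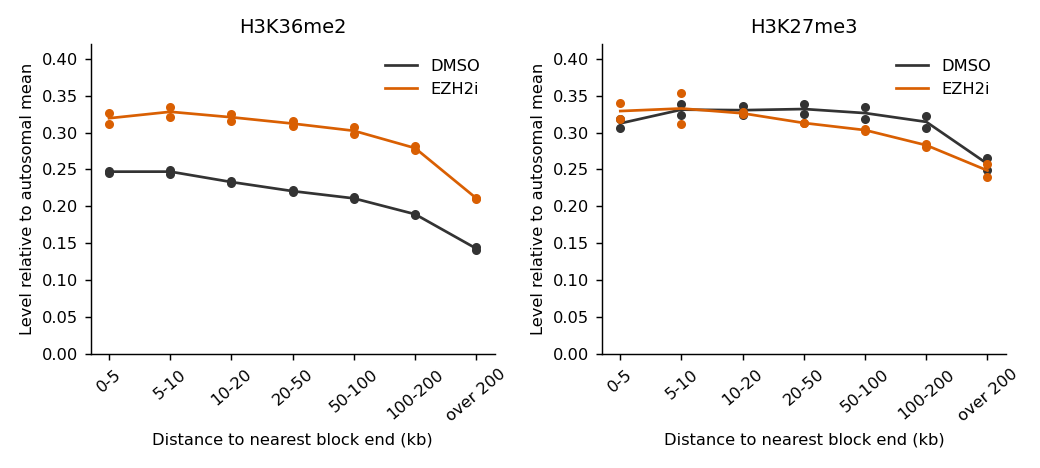
Relative H3K36me2 (left) and H3K27me3 (right) against distance to the nearest block end (kb), with 1 point per library and lines at the mean of 2, DMSO in dark grey and EZH2i in orange. EZH2i lies above DMSO for H3K36me2 at every distance, from 0.320 against 0.247 at the ends to 0.211 against 0.143 beyond 200 kb, while the H3K27me3 lines lie close together.

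The relative change was smallest in blocks that held whole genes. Pooled over the class, relative H3K36me2 differed by 0.28 in the 154 blocks that hold a whole protein-coding gene (0.26 to 0.30 over the pairs), 0.62 in the 109 that lie within a gene (0.58 to 0.67), 0.57 in the 504 without a protein-coding gene (0.56 to 0.59) and 0.55 in the 99 that overlap part of one (0.50 to 0.59). limma on library totals called 88 of the 154 higher and 6 lower, beside 30% and 5.16% of all features. In the other classes, in the same order, it called 104 of 109, 476 of 504 and 90 of 99 higher, with 0 lower in each. Windows without any read moved with this difference: they were 24.4% of windows in blocks with whole genes and 1.31% to 2.53% in the other classes. In the 69 blocks with over 10% of windows at 0, chosen after that share was seen, the change was 0.18, and in the other 797 it was 0.55; the part of these windows in the difference was not tested.

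Blocks in which relative H3K36me2 was lower were picked by that value, so what follows describes them. Of the 21 blocks in which both EZH2i libraries were lower, 20 hold a whole protein-coding gene (8 of the 21 hold 0 to 2 and 6 hold 10 or more), 12 have over 10% of windows at 0, and 6 lie on chromosome 12. Zinc finger genes of the Zfp list or the Zscan4 family, the latter active in the early embryo, lie whole in 8 blocks, and 7 of these 8 are among the 21. Zscan4 was added to the list after this was seen. In the Zscan4f block, chr7:11240001-11586500, relative H3K36me2 was 0.445 and 0.366 in DMSO and 0.356 and 0.306 after EZH2i. The limma difference on library totals was -0.29 with SE 0.12 (adjusted p = 0.108), so this difference did not pass the test, and the log2 ratio of relative levels lay between -0.43 and -0.15 when single libraries were left out. In the block with Zfp433 and Zfp781, chr10:81660501-81998500, it went from 0.0986 and 0.0951 to 0.0854 and 0.0766 (-0.25, SE 0.07, limma adjusted p = 0.0465), with 51.0% of windows at 0. The other 3 of the 5 largest differences below 0 were chr16:3285001-3582500, which overlaps no protein-coding gene (-0.29, limma adjusted p = 0.0805, and -0.14 without EZH2i replicate 1), chr7:10776001-11033500 with Zscan4b and Zscan4c (-0.26, adjusted p = 0.0963, and -0.14 without DMSO replicate 1) and chr12:19928501-20226500 (-0.25, adjusted p = 0.0206). The 6 blocks called lower all have over 10% of windows at 0. The remaining Zfp block, chr17:22878001-23285500 with Zfp40, rose (0.154 and 0.149 against 0.197 and 0.183, limma adjusted p = 0.0153).

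These 21 blocks also differed between the untreated and the DMSO libraries, which were prepared without and with the spike-in. Pooled, untreated H3K36me2 was 0.0902 and 0.0907 and DMSO H3K36me2 0.285 and 0.272; the median log2 ratio of DMSO to untreated was 1.67 (1.09 to 2.64), against 0.32 over all blocks. Such a ratio was not limited to these 21: it was 2.37 in the Vmn2r block chr7:7301001-10076000, 2.02 in chr14:41205001-43122000 and 1.97 in chr14:4153501-5898500, where relative H3K36me2 was not lower after EZH2i (log2 differences 0.04, 0.37 and 0.43). In the Zscan4f block the untreated libraries stood at 0.106 and 0.0854 and the DMSO libraries at 0.445 and 0.366. Solvent, spike-in and any difference between the cultures cannot be told apart in this comparison. The 21 were picked for EZH2i below DMSO, which favours high DMSO levels. All blocks were picked for the absence of untreated peaks, which favours low untreated levels. How much of the ratio follows from these choices was not tested.

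H3K27me3 fell throughout the blocks on the spike-in scale. It read 16.4 and 12.6 per window in DMSO and 0.0291 and 0.0217 after EZH2i, a 571-fold lower level (log2 -9.16, -9.56 to -8.76 over the pairs, exact permutation p = 0.333), beside 520-fold in shorter gaps and 536-fold in peaks. limma called all 863 blocks with reads in every library lower, as it did 100% of all features. These sizes rest on the deposited factors, which were 5.94 and 3.37 in DMSO and 0.242 and 0.099 after EZH2i.

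Relative to its own library and pooled over each class, H3K27me3 after the inhibitor was higher in blocks with whole genes and lower in the others. The pooled log2 difference was 0.15 in the 154 blocks that hold a whole protein-coding gene (0.06 to 0.25 over the pairs), -0.21 in the 109 within a gene (-0.30 to -0.12), -0.13 in the 504 without one (-0.17 to -0.09) and -0.16 in the 99 that overlap part of one (-0.20 to -0.12). Single blocks were mixed: over all 866, both EZH2i libraries were higher in 55 of the 154 with whole genes and lower in 44. They were higher in 11 of the 109, 74 of the 504 and 11 of the 99, and lower in 60, 208 and 47. Of all features 39% were higher and 38.1% lower. In the 69 blocks with over 10% of windows at 0 the pooled difference was 0.25 (0.09 to 0.42), and in the other 797 -0.12 (-0.16 to -0.08). Only 36794 and 66959 window reads fell in the blocks, and 89.4% and 82.95% of block windows had none. Over all blocks the relative level was 0.305 and 0.320 in DMSO and 0.290 and 0.295 after EZH2i, a difference of -0.09 (-0.14 to -0.05 over the pairs, and -0.058 without DMSO replicate 2), while shorter gaps differed by 0.04 and peaks by -0.0019. On library totals, limma called 53 blocks higher (26.3% of all features) and 84 lower (20.2%). These counts rested on single libraries: they were 33 higher and 20 lower without DMSO replicate 1, 28 and 5 without DMSO replicate 2, 134 and 266 without EZH2i replicate 1, and 140 and 284 without EZH2i replicate 2. Both EZH2i libraries were above both DMSO libraries in 151 of 863 blocks (17.5% against 39% of all features) and below in 358 (41.5% against 38.1%).

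Among blocks in which every pair of libraries had the same direction, the largest falls of relative H3K27me3 lay within Mdga2 (chr12:66969501-67218000, -0.87), a synapse organiser gene, and Hdac9 (chr12:34410001-34617500, -0.86), a histone deacetylase gene. In Mdga2 the libraries read 0.341 and 0.393 in DMSO and 0.204 and 0.196 after EZH2i, on 21 and 36 window reads, and limma on library totals gave -0.81 with SE 0.13 (adjusted p = 0.0037). Relative H3K36me2 rose in the same block, from 0.142 and 0.136 to 0.256 and 0.240 (limma on library totals, adjusted p = 0.00205). Both EZH2i libraries were likewise higher in 93.6% of all blocks and in 108 of the 109 within a gene. On the spike-in scale limma called no block for H3K36me2. The next largest falls of relative H3K27me3 were chr16:70588501-70830500 (-0.81, and -0.54 to -1.09 without single libraries), chr6:25461501-25669000 (-0.80) and chr14:73800001-74005500 (-0.77). The 5 largest rises in the same sense were chr2:175167501-177312500 with Zfp965 and Zfp968 (2.65), chr2:177538001-178060500 with Zfp971 and Zfp972 (2.51), chr10:81660501-81998500 (2.43), chr13:66005501-66213000 (2.27) and chr4:145606001-146051500 with Zfp980 (2.00). In the first of these, relative H3K27me3 went from 0.0436 and 0.0531 to 0.309 and 0.294, on 54 and 92 window reads with 80.4% of windows at 0 (limma on library totals 2.21, SE 0.13, adjusted p = 0.000265). The chr10 value rests on 6 and 43 window reads after EZH2i and was 1.43 without EZH2i replicate 2 and 3.43 without replicate 1; the chr13 value rests on 7 and 15. On the spike-in scale these blocks fell too.

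Blocks with a larger change of H3K36me2 had, in order, a lower change of H3K27me3. Over 863 blocks the change of relative H3K36me2 and that of relative H3K27me3 had a Spearman's rho of -0.559, and -0.531 over the 797 blocks with 10% or less of windows at 0; the points share libraries and mapping, and the value is a description. The 21 blocks lower in H3K36me2 were picked by that value. Of these, 19 were higher in relative H3K27me3 in both libraries, beside 17.5% of 863 blocks and 39% of all features. The median H3K27me3 change in the 21 was 1.26, against -0.14 over all blocks. These 21 blocks held 1171 and 2616 H3K27me3 window reads after the inhibitor.

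**Figure D5:**
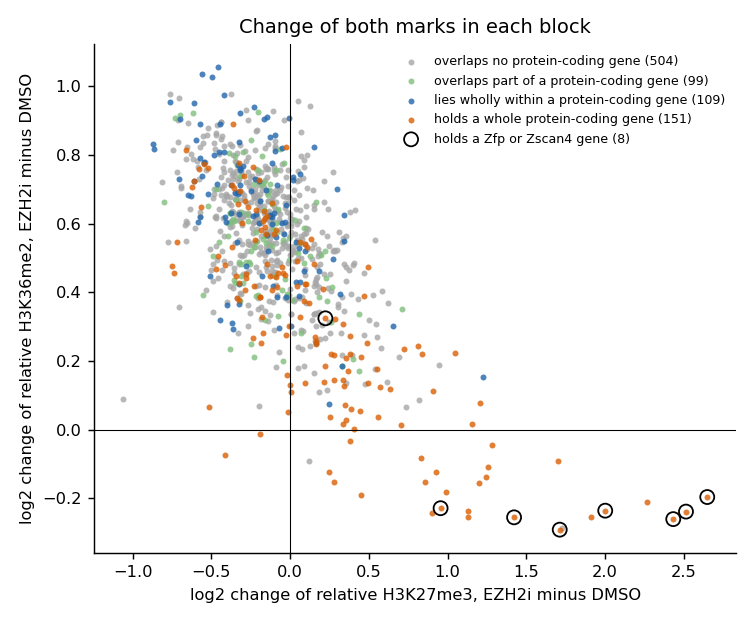
Log2 change after EZH2i of relative H3K27me3 (horizontal) and relative H3K36me2 (vertical) in the 863 blocks with H3K27me3 reads in every library, coloured by protein-coding gene content; rings mark the 8 blocks with a whole Zfp or Zscan4 gene. Most blocks lie left of 0 and above it, and 7 of the 8 ringed blocks lie at lower right, below 0 in H3K36me2 and above 0 in H3K27me3.

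Blocks were also set beside 200 kb tiles outside them with the same untreated level. Among blocks with untreated relative H3K36me2 of 0.1 to 0.15, the median change was 0.64 (276 blocks, quartiles 0.53 and 0.75), and among 200 kb tiles outside the blocks at that level it was 0.57 (267 tiles, quartiles 0.42 and 0.71). At 0 to 0.1 the medians were 0.60 in 150 blocks and 0.50 in 90 tiles, and at 0.15 to 0.2 they were 0.60 in 187 blocks and 0.54 in 355 tiles. At 0.2 to 0.3 the medians were 0.46 in 187 blocks and 0.47 in 695 tiles, and at 0.3 to 0.6 they were 0.37 in 66 blocks and 0.29 in 1732 tiles. The median was higher in blocks at 4 of the 5 levels, the quartile ranges overlapped at each, and the difference was not tested. Within the blocks the change went with more untreated H3K27me3 (rho 0.408) and less H3K36me3 (rho -0.393) over 866 blocks, again as a description.

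At the scale of 10 kb, H3K36me2 in the blocks was called in 0 of 30136 bins on the spike-in scale by limma (0.000395% of all bins higher). At an unadjusted p under 0.05 it had 5912 of them, among 12922 of all 253049 bins. limma-voom called 0, with 4545 unadjusted among 9919 of all bins. On library totals 7393 bins were higher and 35 lower, against 8.03% and 0.083% of all bins. H3K27me3 was lower in 13388 of 13393 bins with reads in every library on the spike-in scale (100% of all bins). The requirement of reads in every library kept 13393 of 30536 bins. On library totals 493 of the kept bins were higher and 57 lower, against 11.7% and 1.45% of all bins; their median difference was 0.19, while whole blocks had a median of -0.13, so nothing is read from the direction in bins chosen partly by their treated reads.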

How the data were processed

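Chromatin immunoprecipitation libraries were analysed from the signal tracks and peak lists the authors deposited. The submitters' processing notes name Trim Galore 0.4.2, Bowtie2 2.2.6.2 and SICER, with the builds mm10 (GRCm38) and dm3; settings and the handling of reads that map to several places are not given in the sources used here. Each deposited track holds log2 values, log2(1 + reads × factor), in 1 kb windows every 500 bp. Whole reads were recovered for 100% of values (tolerance 0.02), and non-overlapping windows were used. The factor is that of RPM in untreated libraries and was taken as the spike-in factor in quantitative ones; how the authors derived it is not given in the sources used here. The score in the authors' deposited peak lists was not used, only positions.

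EZH2i and DMSO were compared with limma 3.58.1 (R 4.3.3) on log2(mean scaled reads per window + 1), fitted over 10 kb bins of chromosomes 1 to 19 and X, or over the blocks with 200 kb autosomal tiles of at least 100 windows, with Benjamini-Hochberg adjustment over all features at 0.05. Features at 0 in any of the 4 libraries were left out. "Library totals" scales each library to the same autosomal mean. Values pooled over blocks were tested by exact permutation over libraries. Fits were tested on simulated data. Blocks were named by rank: the longest, the richest in genes, the highest in H3K36me3 and the largest changes in each direction with all pairs of libraries alike; genes by length, H3K36me3 and fixed lists. Genes and promoters came from RefSeq GRCm38.p6. The blocks and lists were chosen with earlier results of these data known. Base composition of the blocks and input libraries were not analysed here. The text gives most, not all, of the blocks that the naming rule picks.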

Additional observations from a re-analysis of the deposited data

Results flagged for a closer look

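Chromosome X was outside the blocks, which were taken on the autosomes. Its 169 gaps of 200 kb or more cover 136.2 Mb. H3K36me2 there, relative to the autosomal mean of each library, was 0.192 and 0.183 in DMSO and 0.217 and 0.209 after EZH2i, a log2 change of 0.19 (0.12 to 0.25 over the pairs), so both treated libraries lay above both controls. These gaps were in no comparison of blocks; chromosome X entered only the shares over all 10 kb bins. The change was smaller than the 0.52 of the autosomal blocks. Relative H3K27me3 in the same gaps was 0.177 in both DMSO libraries and 0.1996 and 0.2182 after EZH2i (0.24), on 10234 or more window reads per library. The difference from the autosomal blocks was not tested.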

How the results depend on the processing

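H3K36me2 calls changed with the scale and with the replicate block. On library totals limma called 764 blocks and 7428 bins against 0 and 0 on the spike-in scale; on that scale 0.1 added before the log gave 6 bins and no filter on low values 68. Leaving out each library in turn gave 0 to 61 bins on the spike-in scale. On library totals leaving out libraries gave 719 to 783 blocks for H3K36me2, but for H3K27me3 33 to 424 against 137, with more higher than lower calls without either DMSO library. H3K27me3 bins called were 13388, with 550 on library totals, 29765 without a filter, 5142 at 50 kb and 13403 to 22050 without single libraries. H3K27me3 blocks called were 863, with 137 on library totals, 2251 for blocks of 100 kb or more and 132 for 500 kb or more. The pooled H3K27me3 change of -9.16 was -0.093 on library totals. The pooled relative H3K36me2 change of 0.52 was 0.49 for 100 kb, 0.54 for 500 kb and 0.55 without blocks over 10% at 0, an alternative chosen after seeing the data, as were those within library totals. H3K36me3 was 0.0815 in blocks of 500 kb or more. Genes wholly inside were 1445 at 100 kb and 443 at 500 kb against 944. The median over H3K27me3 bins went from -4.01 to 0.19 on library totals. Library totals remove by construction any change shared by the whole library, so a fall of H3K27me3 over all windows cannot show there. On the spike-in scale the size of the bin median also depended on the value added before the log. It was -6.84 with 0.1 added, and -8.62 with limma-voom. Other lengths change the number of blocks. The causes of the remaining differences were not tested. H3K27me3 after EZH2i had 36794 and 66959 window reads in the blocks.

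With the replicate number as a block, limma on the spike-in scale called 813 blocks and 22774 bins for H3K36me2 against 0 and 0. The same fit called 43.1% of all blocks and tiles and 32.6% of all bins. Replicate 1 lay above replicate 2 in both arms (log2 0.62 and 0.87), and deviations of same-numbered libraries correlated at 0.352 over 865 blocks (0.101 over 803 for H3K27me3). With only 2 numbers, nothing in the labels shows that they pair the libraries.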

Other observations

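Of all 47042 autosomal genes of any type, 7.28% lay wholly inside a block, with 3.72% of lncRNA genes, 14.5% of pseudogenes and 37 of 1136 miRNA genes (3.26%). Of the variable segments of immune receptor genes, 86 of 130 Trav lay wholly in 1 block on chromosome 14, 93 of 183 Ighv in 4 blocks on chromosome 12 and 31 of 162 Igkv in 2 blocks on chromosome 6, while none of 35 Trbv did. These segments are joined and expressed in lymphocytes. Of 1286 small nucleolar RNA genes 284 lay inside (22.1%), of which 206 are in chr7:59268501-61402000, the block of the imprinted genes Snurf and Snrpn, including 17 of 17 Snord116 copies. Relative H3K36me2 in that block was 0.0870 and 0.0819 in DMSO and 0.108 and 0.118 after EZH2i (limma on library totals, adjusted p = 0.00914), and 19.6% of its windows had no read.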
